A study of Mus musculus with 2 samples.

Results

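Genes of MHC class II antigen presentation were followed through the nuclei of the inflamed mouse colon. The set held 7 genes, taken by their exact symbols from the 32285 genes of the count tables: H2-Aa, H2-Ab1, H2-Eb1, H2-DMa, H2-DMb1, Cd74 and Ciita. All 7 were found. Single-nucleus RNA sequencing had been done on snap-frozen colon in 2 libraries, 1 from wild type (WT) mice and 1 from HIF-1α KO mice, each from a pool of 3 animals. The HIF-1α KO mice were Ncr1cre+ Hif-1αfl+/fl+, in which a Cre recombinase driven by the promoter of Ncr1, the gene of the receptor NKp46, deletes Hif-1α in NKp46-expressing innate lymphoid cells. The genes described here were therefore measured mostly in cells in which the deletion is not driven. The WT mice were littermates, and whether they carried the floxed alleles is not given in the sources used here. The study compared the genotypes to see how the loss of HIF-1α in these cells alters the colon in chronic colitis. Mice of both groups were 8 to 12 wk old and received 2% dextran sodium sulfate (DSS), an agent that injures the colonic epithelium, in the drinking water in 4 cycles, each of 3 d of DSS and 4 d without it, and were examined on day 28.

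MHC class II molecules display peptides from the endosomal pathway to CD4+ T cells. An α chain and a β chain form the peptide-binding molecule, the invariant chain guides it to the endosome and fills its groove, and the H2-DM heterodimer exchanges the remaining invariant chain fragment for antigenic peptide. CIITA, a coactivator that binds no DNA itself, is recruited to factors on the X and Y boxes of class II promoters. B cells, dendritic cells and macrophages use the pathway constitutively, and interferon-γ induces it in other cells, including the intestinal epithelium.

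Nuclei were kept where 400 to 5000 genes were detected and mitochondrial genes made up at most 10% of the unique molecular identifiers (UMIs). This left 4884 nuclei of the WT colon and 4702 of the HIF-1α KO colon, with 13259430 and 23605502 UMIs. The libraries differed in depth, with a median of 2059 UMIs per nucleus in WT and 4197 in HIF-1α KO. They shared 3 cell barcodes. Levels are given as counts per 1000000 (CPM), that is, the UMIs of a gene in every 1000000 UMIs of the same nuclei, so that depth is divided out of a level but not out of the share of nuclei with a UMI. With 1 library per genotype no test between genotypes was possible, and differences between WT and HIF-1α KO are differences between these libraries. All intervals are 95% intervals and cover counting error only. Hif1a was counted at 172 CPM in WT and 199 CPM in HIF-1α KO nuclei, which does not check the genotype, since Ncr1, which drives the Cre, had 1 UMI in the WT library and 0 among the 23605502 UMIs of the other.

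Nuclei were clustered without the class II genes and their pathway genes, and clusters were called after marker genes from other lists. B cell-like nuclei (cluster with Bank1, Pax5 and Ms4a1) numbered 103 in WT and 154 in HIF-1α KO, and all 12 of 12 B cell markers were detected in each library. Myeloid-like nuclei numbered 50 and 75, and T cell-like nuclei 10 and 50. Epithelial nuclei, the sum of 6 classes, numbered 2765 and 3575. Stromal nuclei, the sum of fibroblast-, smooth muscle-, blood endothelial- and lymphatic endothelial-like classes, numbered 662 and 322. The 7 clusters without a name held 1294 and 526 nuclei.

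Of the 7 genes, 5 lie in the class II region of mouse chromosome 17 (GRCm38): H2-DMa at chr17:34119541-34139101, H2-DMb1 at chr17:34153072-34160230, H2-Ab1 at chr17:34257689-34269419, H2-Aa at chr17:34282744-34287823 on the minus strand and H2-Eb1 at chr17:34305867-34316674, the others on the plus strand. Ciita lies at chr16:10480059-10528418 on the plus strand, and Cd74 on another chromosome. Several of these genes overlap others on the opposite strand, H2-DMa with Brd2, Ciita with Dexi and H2-Eb1 with the antisense gene Gm20513, and whether counting used strand is not given in the sources used here. H2-DMb1 and H2-Eb1 also have close paralogs, H2-DMb2 and H2-Eb2, with which reads could be shared. UMI counts were not set against gene length, and levels are compared between nuclei and not between genes.

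RefSeq start sites with promoter windows were at hand for 4 of the 7 genes, H2-Aa, H2-Eb1, H2-DMa and H2-DMb1 (GRCm38.p6, 250 bases before to 50 after each start). Stretches of them are shown because the UMIs of H2-DMa were spread over the nuclei unlike those of the other genes. The letters GNAACT, as found in the X box, and ATTGG, the core of the Y box, were searched on both strands, and these letters were chosen after reading these promoters. Both stood on the same strand 27 bases apart in H2-Aa, 26 in H2-Eb1 and 27 in H2-DMb1, and also 26 apart in the paralog H2-Eb2. The 2 windows of H2-DMa held no such pair, and neither did those of H2-DMb2, H2-Oa and H2-Ob. Of all 32851 promoter windows, 42.8% held GNAACT, 37.4% held ATTGG and 1.40% (459) held both 15 to 45 bases apart on the same strand. Capitals mark GNAACT and ATTGG. The H2-DMb1 stretch is cut after the X box and the following bases. The H2-DMa stretch runs from the 5′ end of Brd2 to the RefSeq start of H2-DMa, and the window around that start held 29 CpG dinucleotides at 73.0% GC, compared with a median of 7 CpG over all windows and 3, 0 and 3 in those of H2-Aa, H2-Eb1 and H2-DMb1. The window of the second RefSeq start of H2-DMa, at chr17:34125518, had 0 CpG at 39.0% GC and held both GNAACT and ATTGG, but not as a pair of the given spacing and strand. A match of letters describes the sequence only, and a missing pair does not show that X and Y boxes are absent. H2-DMb2 and H2-Ob, also without a pair, were higher in B cell-like than in epithelial nuclei. They stood at 69.6 and 133 CPM against 1.20 and 4.03 CPM in WT, and at 17.9 and 104 CPM against 0.74 and 1.08 CPM in HIF-1α KO.
H2-Aa, chr17:34287847-34287924, minus strand: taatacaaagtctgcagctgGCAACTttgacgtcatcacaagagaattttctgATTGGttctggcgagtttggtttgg
H2-Eb1, chr17:34305756-34305832, plus strand: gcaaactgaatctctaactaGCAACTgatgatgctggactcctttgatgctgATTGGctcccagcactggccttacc
H2-DMb1, chr17:34153093-34153122, plus strand: cctaGTAACTgatgatgctaggctgattca
H2-DMa, chr17:34122635-34122831, plus strand: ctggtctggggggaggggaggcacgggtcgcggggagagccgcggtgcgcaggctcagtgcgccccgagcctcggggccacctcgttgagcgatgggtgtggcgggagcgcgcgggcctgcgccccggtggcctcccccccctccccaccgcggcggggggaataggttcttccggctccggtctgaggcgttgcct

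The class II genes other than H2-DMa were concentrated in B cell- and myeloid-like nuclei, for H2-DMb1 on only 1 and 3 UMIs in the latter. Summed over the 7 genes, B cell-like nuclei held 574 CPM (466-699; 99 UMIs) in WT and 921 CPM (821-1030; 309 UMIs) in HIF-1α KO. Myeloid-like nuclei held 541 CPM (399-717; 48 UMIs) and 470 CPM (364-596; 67 UMIs). T cell-like nuclei came next with 434 CPM (217-777; 11 UMIs) and 115 CPM (59.2-200.1; 12 UMIs), on very few UMIs. The intervals of B cell- and myeloid-like nuclei overlapped in WT and did not in HIF-1α KO. The overlap in WT rested on 1 myeloid-like nucleus: without the highest nucleus of each class the levels were 553 CPM (446-677) and 301 CPM (197-441), which did not overlap. The other 10 named classes lay far lower, between 27.5 and 46.6 CPM in WT and between 27.98 and 64.2 CPM in HIF-1α KO, and neighbours in this order overlapped throughout.

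**Figure D1:**
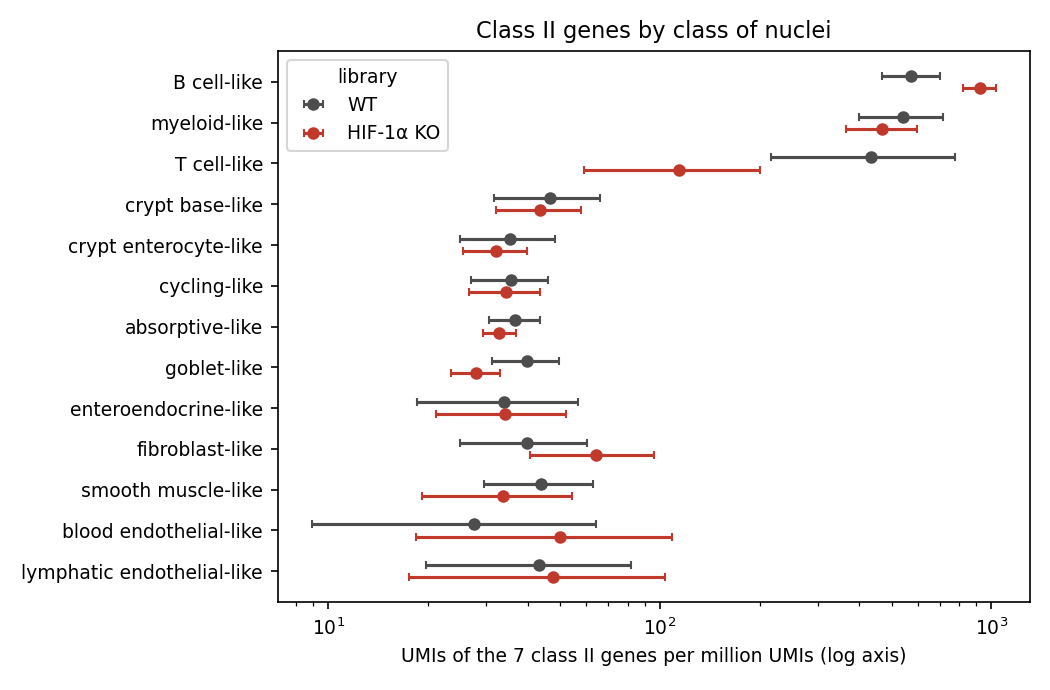
CPM of the 7 class II genes (log axis) in 13 classes of nuclei, with points for the WT (grey) and HIF-1α KO (red) library and bars for exact 95% Poisson intervals. B cell-like nuclei lie at 574 and 921 and myeloid-like nuclei at 541 and 470, whereas epithelial and stromal classes lie between 27.5 and 64.2.

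Smooth muscle-like nuclei were taken as the class that should lack class II transcripts. How much of their class II UMIs was RNA free in the droplets was not tested. They held 43.9 CPM in WT and 33.6 CPM in HIF-1α KO. B cell-like nuclei exceeded them 13.1-fold (8.57-20.5) in WT and 27.4-fold (16.6-48.6) in HIF-1α KO, and myeloid-like nuclei exceeded them 12.3-fold (7.61-20.3) and 14.0-fold (8.02-25.9), or 6.86-fold and 9.09-fold without the 1 highest nucleus of each library. Without H2-DMa, the ratio of B cell- to smooth muscle-like nuclei was 20.4 (12.3-35.9) and 47.5 (24.7-104.9). A nucleus with at least 1 class II UMI was found in 52.4% of B cell-like nuclei in WT and 69.5% in HIF-1α KO, compared with 10.5% and 12.2% of smooth muscle-like nuclei. Median depths were 1470 and 1834 UMIs for B cell-like and 1954 and 2397 for smooth muscle-like nuclei. With every nucleus thinned to 1000 UMIs, which left out 7 B cell-like and 2 smooth muscle-like nuclei of HIF-1α KO, the shares were 40.8% and 53.1% against 4.00% and 4.65%.

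The α and β chains of the peptide-binding molecules were higher in B cell-like than in epithelial nuclei of both libraries, whereas their level in myeloid-like nuclei of WT rested largely on 1 nucleus. H2-Aa, the α chain of the I-A molecule, was counted at 133 CPM (84.5-200.1) in WT and 125 CPM (90.2-169.3) in HIF-1α KO B cell-like nuclei. Myeloid-like nuclei held 56.3 and 77.1 CPM of it, and epithelial nuclei 2.94 and 2.31 CPM. The level in B cell-like nuclei was thus alike within the intervals in the libraries, with a log2 ratio of HIF-1α KO over WT of -0.09 (-0.86 to 0.71). H2-Ab1, its partner β chain, stood at 40.6 and 41.7 CPM in B cell-like and at 135 and 77.1 CPM in myeloid-like nuclei. The H2-Ab1 values rested on 7 and 14 UMIs in B cell-like and on 12 and 11 UMIs in myeloid-like nuclei, and all their intervals between libraries overlapped. H2-Eb1, the β chain of the I-E molecule, was counted at 69.6 CPM (35.9-122) in WT and 128 CPM (92.8-173) in HIF-1α KO B cell-like nuclei, with a log2 ratio of 0.88 (-0.07 to 1.94), an interval that includes 0. In myeloid-like nuclei H2-Eb1 stood at 146 and 77.1 CPM, on 13 and 11 UMIs. A single myeloid-like nucleus of WT held all 5 UMIs of H2-Aa, 9 of the 12 of H2-Ab1 and 8 of the 13 of H2-Eb1, so that H2-Aa was at 0 in the rest of that class. In HIF-1α KO, 1 myeloid-like nucleus held 6 of the 11 UMIs of H2-Aa, 4 of the 11 of H2-Ab1 and 7 of the 11 of H2-Eb1.

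Cd74, the invariant chain, was counted at 75.4 CPM (40.1-129; 13 UMIs) in WT and 182 CPM (139-234; 61 UMIs) in HIF-1α KO B cell-like nuclei, and the intervals did not overlap. The log2 ratio was 1.27 (0.39-2.26), the share of nuclei with a Cd74 UMI was 10.7% in WT and 29.2% in HIF-1α KO, and after thinning 4.85% and 16.3%. Smooth muscle-like nuclei held a Cd74 UMI in 1.45% and 1.53%. In myeloid-like nuclei Cd74 stood at 56.3 and 112 CPM with a log2 ratio of 0.99 (-0.52 to 2.80), on 5 and 16 UMIs. H2-DMb1, the β chain of the peptide exchanger, was counted at 40.6 CPM (16.3-83.6; 7 UMIs) in WT and 89.4 CPM (60.3-128; 30 UMIs) in HIF-1α KO B cell-like nuclei, with a log2 ratio of 1.14 (-0.08 to 2.57). Ciita, the coactivator, stood at 197 CPM (136-275; 34 UMIs) and 331 CPM (272-399; 111 UMIs) in B cell-like nuclei, with a log2 ratio of 0.75 (0.18-1.35). A Ciita UMI was present in 25.2% of the B cell-like nuclei of WT and 42.2% of HIF-1α KO, or 15.5% and 27.2% after thinning. The share in smooth muscle-like nuclei was 2.18% and 1.53%. In myeloid-like nuclei Ciita was 90.1 and 98.1 CPM.

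**Figure D2:**
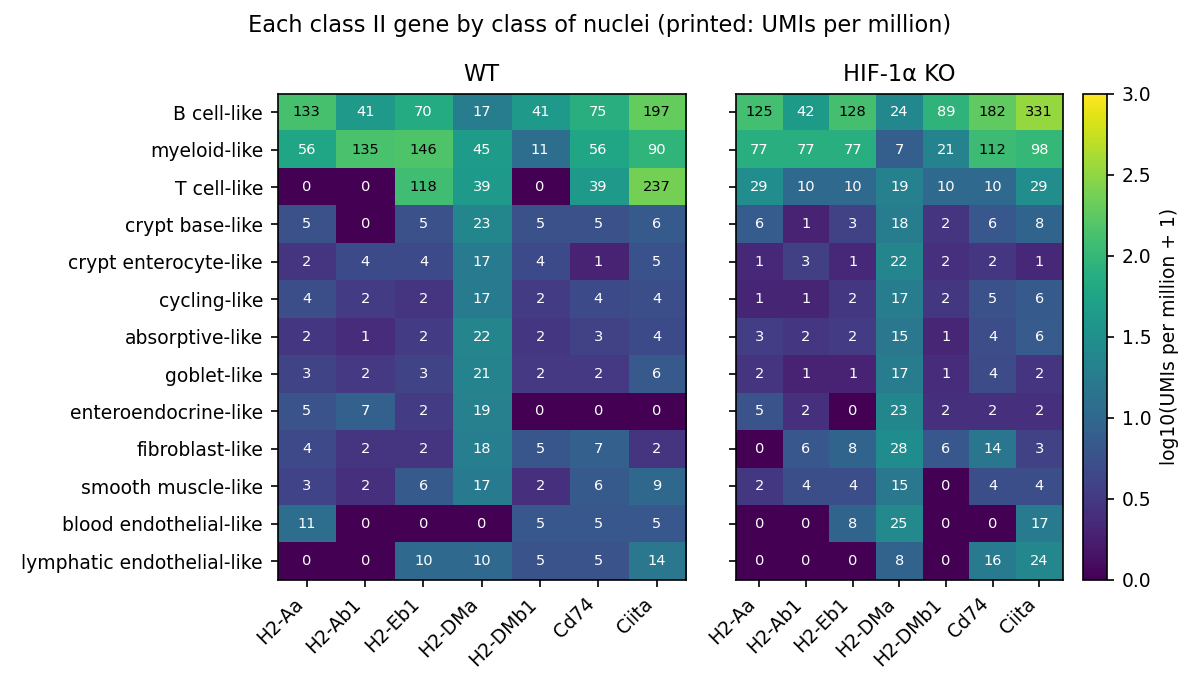
CPM of each class II gene (columns) in 13 classes of nuclei (rows) of the WT and the HIF-1α KO library, with the value printed in each cell and the colour giving log10 of the value plus 1. For the 6 genes other than H2-DMa, the B cell- and myeloid-like rows lie above every epithelial and stromal row, and the T cell-like row of WT, which rests on 11 UMIs, is high for Ciita and H2-Eb1.

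H2-DMa, the α chain of the peptide exchanger, stood apart. It was counted at 17.4 CPM (3.59-50.8; 3 UMIs) in WT and 23.9 CPM (10.3-47.0; 8 UMIs) in HIF-1α KO B cell-like nuclei, where its partner H2-DMb1 stood at 40.6 and 89.4 CPM. In epithelial nuclei H2-DMa was 20.3 CPM (17.5-23.4; 186 UMIs) and 16.9 CPM (15.1-18.8; 344 UMIs), and in smooth muscle-like nuclei 16.7 and 14.7 CPM. The H2-DMa level of B cell-like nuclei was thus 1.04-fold (0.19-3.95) that of smooth muscle-like nuclei in WT and 1.62-fold (0.51-5.26) in HIF-1α KO. Epithelial nuclei held 77.8% of the H2-DMa UMIs of WT and 83.3% of those of HIF-1α KO, while they held 69.2% and 86.3% of all UMIs. For H2-Aa they held 37.0% and 40.5%. Over 13 classes in 2 libraries (26 points that share their libraries), the correlation of log2(CPM + 10) with the mean of the other 6 genes was 0.19 for H2-DMa and between 0.82 and 0.94 for the other 6. Brd2, a widely expressed chromatin reader that overlaps H2-DMa on the opposite strand, was counted at 81.4 and 58.8 CPM in epithelial and 61.1 and 59.2 CPM in stromal nuclei. Whether reads of Brd2 were counted for H2-DMa was not tested.

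Because H2-DMa made up 34.5% of the class II UMIs of WT and 34.8% of those of HIF-1α KO, the sums are also given for the other 6 genes. These stood at 557 and 897 CPM in B cell-like, 496 and 463 CPM in myeloid-like, 26.2 and 27.8 CPM in stromal and 17.2 and 15.4 CPM in epithelial nuclei. The gap between B cell-like and epithelial nuclei was wider without H2-DMa than with it.

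**Figure D3:**
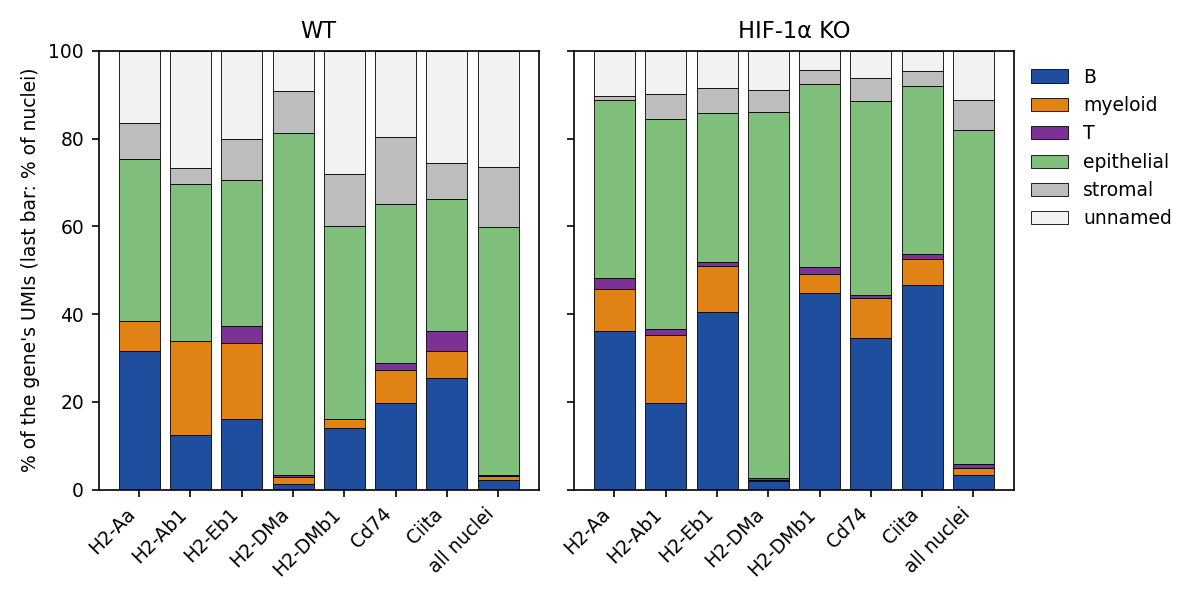
Share (%) of the UMIs of each class II gene that lay in B cell-like, myeloid-like, T cell-like, epithelial, stromal and unnamed nuclei of the WT and the HIF-1α KO library, with the share of nuclei in the last bar. B cell-like nuclei made up 2.11% and 3.28% of the nuclei and held 25.6% and 46.6% of the Ciita UMIs, compared with 1.26% and 1.94% of the H2-DMa UMIs.

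B cell-like nuclei, 2.11% of the nuclei in WT and 3.28% in HIF-1α KO, held 14.3% (11.8-17.1%) and 26.0% (23.6-28.6%) of all class II UMIs. For the 6 genes without H2-DMa, the share was 21.2% and 38.9%. Myeloid-like nuclei, 1.02% and 1.60% of the nuclei, held 6.94% and 5.64%. Epithelial nuclei, 56.6% and 76.0% of the nuclei, held 49.7% and 55.4%, and stromal nuclei, 13.6% and 6.85%, held 9.39% and 4.30%. The share held by B cell-like nuclei was higher in HIF-1α KO than in WT, and so was their share of the nuclei. Of all UMIs of the libraries, B cell-like nuclei held 1.30% and 1.42% and epithelial nuclei 69.2% and 86.3%. With nuclei thinned to 1000 UMIs, B cell-like nuclei held 16.1% and 40.5% of the class II UMIs and epithelial nuclei 38.7% and 34.1%, so that the order of the libraries turned for epithelial nuclei and B cell-like nuclei held the larger share in HIF-1α KO.

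Over all nuclei, the 7 genes together were counted at 52.2 CPM (692 UMIs) in WT and 50.3 CPM (1187 UMIs) in HIF-1α KO, with a log2 ratio of -0.05 (-0.19 to 0.08). The sign of this ratio turned to 0.11 with nuclei thinned to 1000 UMIs and to 0.27 with nuclei weighted equally. Of the 7 genes, 0 passed a 2-fold difference in all nuclei, where 13% of the 14393 genes with at least 50 UMIs did. The log2 ratios ran from -0.49 (-1.02 to 0.04) for H2-Ab1 to 0.58 (0.17-1.01) for Cd74, and Cd74 was the only member with an interval that excluded 0. Cd74 was counted at 4.98 CPM in WT and 7.46 CPM in HIF-1α KO nuclei, whereas Ciita stood at 10.0 and 10.1 CPM. Fewer nuclei of a class and less RNA per nucleus cannot be told apart in these sums over all nuclei.

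Within B cell-like nuclei the 7 genes together were higher in HIF-1α KO, with a log2 ratio of 0.68 (0.35-1.02), and this ratio ran from 0.47 to 0.85 over 10 alternatives of the processing. Of the 4 genes with at least 50 UMIs in these nuclei, H2-Aa, H2-Eb1, Cd74 and Ciita, 1 was more than 2-fold higher in HIF-1α KO, namely Cd74. The background was 6.94% of 2349 genes past 2-fold, 5.87% higher (138 genes) and 1.06% lower. The median log2 ratio of these 2349 genes was 0.21, and relative to it the log2 ratio of the class II sum was 0.47. The median of the 4 class II genes was 0.81.

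Markers of B cells moved along with the class II genes. The 12 markers together were counted at 3559 CPM in WT and 6231 CPM in HIF-1α KO B cell-like nuclei, with a log2 ratio of 0.81 (0.68-0.94). Their most abundant gene was Pax5 with 185 UMIs in WT and Bank1 with 879 UMIs in HIF-1α KO. Bank1, an adaptor of B cell receptor signalling, had a log2 ratio of 1.30 (1.07-1.53) and Ms4a1, which encodes CD20, one of 1.72 (0.86-2.68), while that of Cd22, an inhibitory receptor of B cells, was -0.25 (-0.76 to 0.28). None of the 12 markers was at 0 in either library. For every 100 UMIs of B cell markers, the 6 class II genes without H2-DMa had 15.6 UMIs in WT and 14.4 in HIF-1α KO. The part of the marker level in the class II difference was not tested. Plasma cell markers stood at 522 and 483 CPM, with Tnfrsf17 at 0 in both libraries. Epithelial markers, which should be absent from B cells, stood at 2122 and 3300 CPM, with Krt8 as the most abundant gene. Epithelial nuclei themselves held 3564 and 4375 CPM of these epithelial markers. The source of the epithelial UMIs in B cell-like nuclei was not tested.

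**Figure D4:**
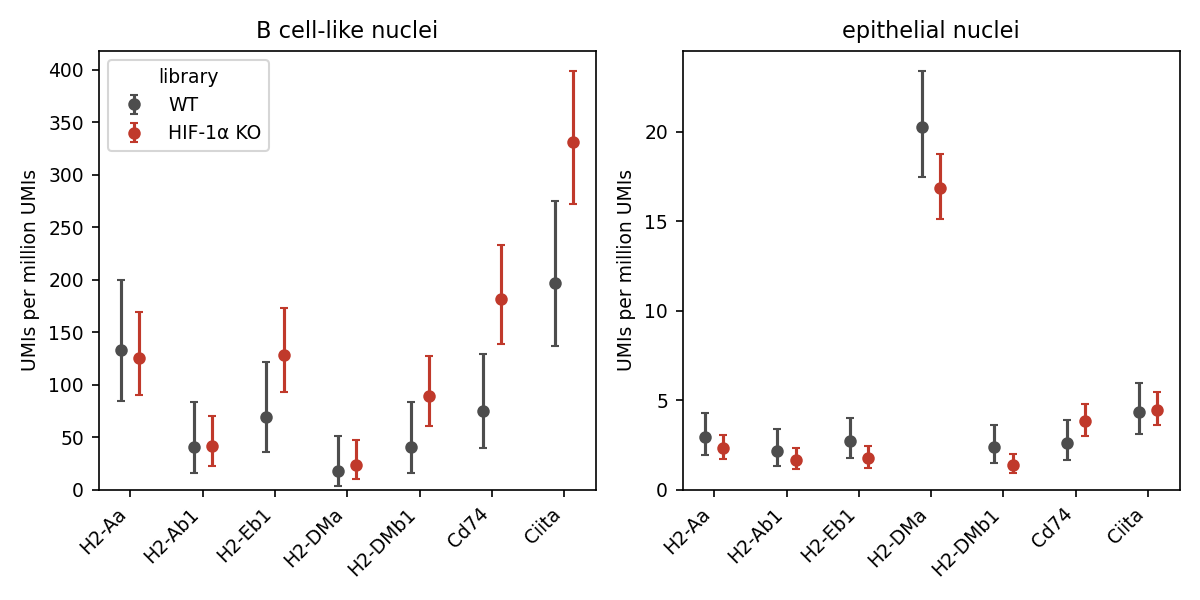
CPM of each class II gene in B cell-like (left) and epithelial (right) nuclei of the WT (grey) and HIF-1α KO (red) library, with exact 95% Poisson intervals and a linear axis of different range in each panel. In B cell-like nuclei the intervals of Cd74 do not overlap (75.4 and 182), whereas those of H2-Aa (133 and 125) do.

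The class II UMIs of B cell-like nuclei were spread over many nuclei. In WT, 11 of 103 B cell-like nuclei held 3 or more class II UMIs and the highest held 6, whereas in HIF-1α KO 45 of 154 held 3 or more and the highest held 12. This nucleus had UMIs of all 7 genes and 18 UMIs of B cell markers. At 1000 UMIs per nucleus, 2 or more UMIs of the 7 genes were counted in 9 of the 103 B cell-like nuclei left from the WT library and in 39 of the 147 left from the HIF-1α KO library. UMIs of 2 or more of the 7 genes were found in 21.4% of the B cell-like nuclei of WT and 39.0% of HIF-1α KO.

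In myeloid-like nuclei, by contrast, 1 nucleus in each library carried much of the signal. In WT, 1 of 50 nuclei held 22 of the 48 class II UMIs, with 5 of H2-Aa, 9 of H2-Ab1 and 8 of H2-Eb1. In HIF-1α KO, 1 of 75 held 25 of the 67, together with 18 UMIs of dendritic cell markers, whereas the WT nucleus had 1 such UMI. Without these nuclei the level was 301 CPM in WT and 305 CPM in HIF-1α KO. The log2 ratio of myeloid-like nuclei, -0.20 (-0.76 to 0.36), was 0.02 without them and 0.29 where nuclei were named by their own markers, but -0.83 with nuclei thinned to 1000 UMIs, -0.37 with nuclei weighted equally and -0.36 with size factors.

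**Figure D5:**
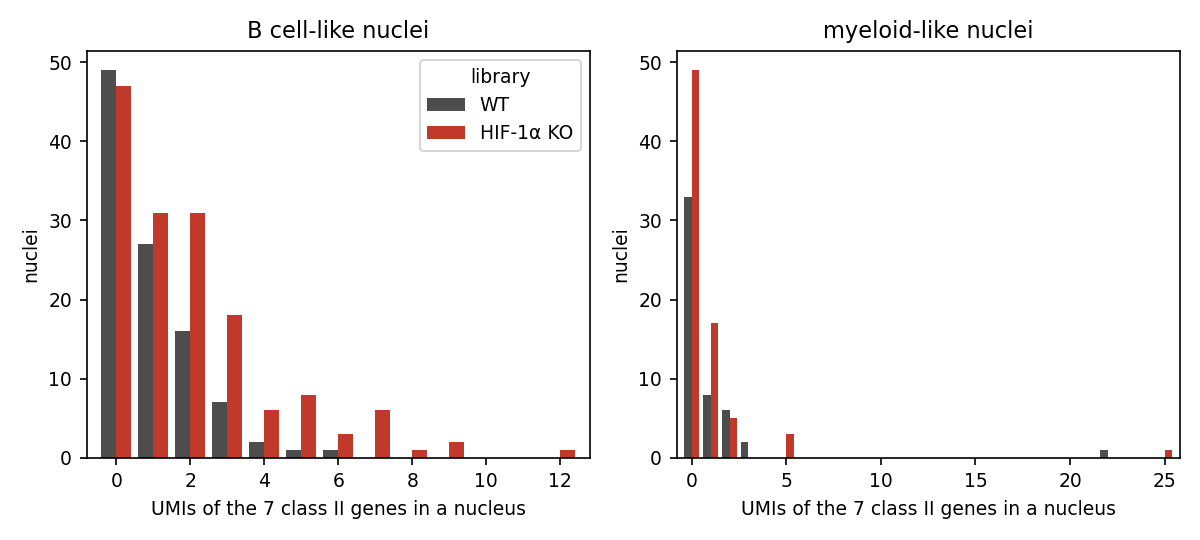
Number of B cell-like (left) and myeloid-like (right) nuclei by the number of UMIs of the 7 class II genes they held, for the WT (grey) and HIF-1α KO (red) library. B cell-like nuclei reach 6 (WT) and 12 (HIF-1α KO) UMIs, whereas in myeloid-like nuclei a single nucleus with 22 (WT) and 25 (HIF-1α KO) UMIs lies far from the others.

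The makeup of the myeloid-like cluster differed between the libraries. The 16 markers of macrophages and monocytes summed to 2726 CPM in WT and 1374 CPM in HIF-1α KO, with 15 of 16 and 11 of 16 detected. Mrc1, the mannose receptor of tissue macrophages, had 60 UMIs in WT and 19 in HIF-1α KO, and C1qa, a complement component of macrophages, had 15 and 0. The 5 neutrophil markers summed to 180 and 1423 CPM, with S100a8, a calcium-binding protein of neutrophils, at 0 and 65 UMIs. The 8 dendritic cell markers summed to 146 and 266 CPM, with Itgax (5 UMIs) and Zbtb46 (14 UMIs) as the most abundant and Cd209a at 0 in both. The cluster was led by Cxcl2, S100a9 and Il1b. Epithelial markers summed to 2129 CPM in WT and 4164 CPM in HIF-1α KO, compared with 3564 and 4375 CPM in epithelial nuclei. The part of this makeup in the class II levels of myeloid-like nuclei was not tested.

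In T cell-like nuclei the difference between 434 and 115 CPM rested on 1 WT nucleus. It held 8 of the 11 UMIs of that library, 4 of them Ciita, together with 13 UMIs of B cell and 16 of T cell markers. Without the highest nucleus of each library the values were 139 and 78.3 CPM, and the log2 ratio was -0.83 in place of -1.92.

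Epithelial nuclei held class II UMIs at the level of smooth muscle-like nuclei. The 7 genes summed to 37.5 CPM (33.6-41.7) in WT and 32.3 CPM (29.9-34.8) in HIF-1α KO epithelial nuclei, which was 0.85-fold (0.58-1.29) and 0.96-fold (0.59-1.69) the smooth muscle-like level. Without H2-DMa the ratios were 0.63 (0.39-1.09) and 0.82 (0.42-1.80). Over all epithelial nuclei, neither sum and none of the 7 genes singly exceeded smooth muscle-like nuclei beyond the interval, and the intervals of single genes were wide, for instance 0.91-fold (0.24-7.66) for Cd74 in HIF-1α KO. For every 100 UMIs of 9 pan-immune markers, the 6 genes had 9.99 and 11.6 UMIs in epithelial, 12.2 and 10.8 in smooth muscle-like and 11.9 and 10.9 in B cell-like nuclei. Taken over all epithelial nuclei, this proportion was near that in B cell-like nuclei, but it varied among the 6 epithelial classes. It ran from 6.67 (enteroendocrine) to 12.4 (cycling) in WT and from 6.27 (crypt enterocyte) to 21.1 (crypt base) in HIF-1α KO. Dock8 alone held 349 of the 1582 pan-immune UMIs of epithelial nuclei in WT and 1079 of the 2716 in HIF-1α KO. How far the proportion depends on that gene was not tested. Between the genotypes the epithelial log2 ratio was -0.22 (-0.41 to -0.02) for the 7 genes and -0.16 (-0.44 to 0.12) for the 6 without H2-DMa, whose interval included 0. Of the 7 genes, 0 passed a 2-fold difference, where 11.1% of 13155 genes did.

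Among the 6 epithelial classes, the crypt base-like nuclei, with markers of stem cells such as Lgr5 and Smoc2, had 46.6 and 43.6 CPM and the goblet-like nuclei 39.6 and 27.98 CPM. In goblet-like nuclei the log2 ratio was -0.50 (-0.92 to -0.08) for all 7 genes, and the 6 without H2-DMa stood at 18.5 CPM in WT and 10.8 CPM in HIF-1α KO, with -0.78 (-1.42 to -0.12). In absorptive colonocyte-like nuclei they stood at 14.3 CPM (10.6-18.9) and 18.2 CPM (15.6-21.2). Within these, cluster 7, led by Ifit1bl1, Clca4a and Lama3, had 12.7 CPM (6.92-21.2; 14 UMIs) in WT and 23.1 CPM (18.0-29.1; 71 UMIs) in HIF-1α KO, with a log2 ratio of 0.87 (0.03-1.81). Cluster 0, the crypt enterocyte-like nuclei, was lower in HIF-1α KO, at 18.6 CPM (20 UMIs) and 9.77 CPM (25 UMIs), with a log2 ratio of -0.93 (-1.83 to -0.0025). Of the 11 epithelial clusters compared, these were the 2 with an interval that excluded 0 for the 6 genes. Neither held for all 7 genes, with log2 ratios of 0.25 (-0.39 to 0.93) in cluster 7 and -0.14 (-0.71 to 0.46) in cluster 0, and there the interval excluded 0 in cluster 9 alone, a goblet-like cluster at -0.76 (-1.48 to -0.03). H2-DMa stood at 11.8 and 5.86 CPM in cluster 7, and the interval of its log2 ratio, -2.11 to 0.15, includes 0. Over all absorptive colonocyte-like nuclei H2-DMa was lower in HIF-1α KO, at 22.3 and 14.6 CPM, with a log2 ratio of -0.61 (-1.02 to -0.19). In the other absorptive clusters its log2 ratio was -0.97 (-1.65 to -0.28) in cluster 5 and -0.14 (-0.76 to 0.51) in cluster 1. The absorptive colonocyte-like nuclei also hold cluster 1, which is weakly named: 3 markers passed, the markers had a mean log2 ratio of -0.06, and its leading genes were Gsdmc2, Gsdmc3 and Cyp2c68. The 6 genes stood at 15.7 and 15.1 CPM in it.

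Single epithelial nuclei with several class II UMIs were rare but present. In WT, 0 of 2765 held 3 or more, and in HIF-1α KO 19 of 3575 did, at a median depth of 8871 UMIs per nucleus. At 1000 UMIs per nucleus, 1 WT and 4 HIF-1α KO epithelial nuclei held 2 or more. The highest nucleus, in HIF-1α KO, held 7 class II UMIs, 5 of them Cd74, beside 64 UMIs of epithelial and 1 of pan-immune markers. In cluster 7 of HIF-1α KO, at a median of 6147 UMIs, 11 of 410 nuclei held 2 or more UMIs of the 6 genes without H2-DMa. The count was 0 of 131 in smooth muscle-like nuclei, at a median of 2397 UMIs. At 1000 UMIs per nucleus there was no such contrast, with 0 of 410 nuclei of cluster 7 and 0 of 129 smooth muscle-like nuclei of HIF-1α KO. Another epithelial nucleus, with 4 class II UMIs, held 26 UMIs of pan-immune and 16 of B cell markers. Whether such droplets held more than 1 nucleus was not tested.

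In stromal nuclei the 7 genes stood at 40.5 CPM (31.3-51.6) in WT and 47.2 CPM (35.1-62.1) in HIF-1α KO, with a log2 ratio of 0.22 (-0.34 to 0.77). The fibroblast-like nuclei had 39.7 and 64.2 CPM, on 22 and 23 UMIs, and their intervals overlapped. The unnamed clusters held 57.0 and 57.5 CPM. In them H2-DMa stood at 10.0 and 23.6 CPM, with a log2 ratio of 1.24 (0.44-2.07). The 6 other genes stood at 47.0 and 33.9 CPM, with -0.47 (-0.98 to 0.02). The largest unnamed cluster in WT, cluster 3, held 689 WT and 94 HIF-1α KO nuclei at a median of 1425 UMIs. It had 60.0 and 61.9 CPM of the 6 genes without H2-DMa, above the 17.2 and 15.4 CPM of epithelial nuclei.

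Of a list of 6 other class II genes, 4 were in the tables and 2 had at least 50 UMIs in all nuclei, and both were more than 2-fold lower in HIF-1α KO, where 7.21% of all genes were. H2-Ob, the β chain of the H2-DO modulator that restrains H2-DM, was counted at 6.79 CPM in WT and 3.01 CPM in HIF-1α KO, with a log2 ratio of -1.17 (-1.64 to -0.71). In B cell-like nuclei H2-Ob stood at 133 and 104 CPM, with a log2 ratio of -0.35 (-1.15 to 0.47), and these nuclei held 23 of its 90 UMIs in WT and 35 of 71 in HIF-1α KO. In epithelial nuclei H2-Ob was 4.03 and 1.08 CPM. H2-DMb2, the paralog of H2-DMb1, stood at 2.56 and 1.06 CPM in all nuclei. In B cell-like nuclei it had 12 and 6 UMIs, or 69.6 and 17.9 CPM, and H2-DMb1 had 7 and 30 UMIs. The sum of both DM β genes was 19 and 36 UMIs there.

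Of the 7 enhanceosome factors on class II promoters, 0 passed a 2-fold difference in all nuclei, where 13% of genes did. Their log2 ratios had a median of 0.04 and ran from that of Rfx5, a DNA-binding subunit of RFX, at 8.52 and 5.68 CPM with -0.59 (-0.96 to -0.21), to 0.43 (-0.06 to 0.94) for Rfxap, another subunit. Nfya, a subunit of the Y box factor NF-Y, stood at 20.0 and 25.8 CPM. In B cell-like nuclei 2 of the 7 had at least 50 UMIs, Nfyc with a log2 ratio of 0.23 (-0.43 to 0.93) and Creb1 with 0.64 (0.00-1.33).

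Signalling from interferon-γ to Ciita was followed in a list of 13 genes. The list also held inhibitors of the signal and interferon-induced genes such as Gbp2 and Cd274. Counts over the list thus do not measure that route alone. Ifng itself had 0 UMIs in both libraries, where 3 UMIs would have been 0.23 CPM in WT and 0.13 CPM in HIF-1α KO. Of the 12 genes with at least 50 UMIs in all nuclei, 1 was more than 2-fold higher in HIF-1α KO and 0 lower, against a background of 5.82% higher, and 11 had a log2 ratio above 0, where 49.2% of all genes did, with a median of 0.43. Gbp2, an interferon-induced GTPase, was counted at 5.51 and 13.3 CPM, with a log2 ratio of 1.28 (0.91-1.67). In epithelial nuclei 2 of 12 were more than 2-fold higher, where 5.55% of genes were, Gbp2 at 4.03 and 13.2 CPM and Cd274, which encodes PD-L1, at 6.65 and 14.4 CPM, while Ciita in the same nuclei was 4.36 and 4.47 CPM, with a log2 ratio of 0.03 (-0.52 to 0.61). In B cell-like nuclei 5 genes of the list had at least 50 UMIs and 2 were more than 2-fold higher, where 5.87% of genes were. Irf8, a transcription factor of B and myeloid cells, was counted there at 81.2 and 209 CPM, with a log2 ratio of 1.36 (0.52-2.31).

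Of 11 genes for endosomal processing and turnover in the tables, 0 passed a 2-fold difference in all nuclei, where 13% of genes did. Their log2 ratios had a median of 0.35, compared with -0.01 over all genes, and the lowest was that of Lgmn at 31.1 and 16.9 CPM and the highest that of Sppl2a. Ctss, the cathepsin that trims the invariant chain, was counted at 40.7 and 64.1 CPM, with a log2 ratio of 0.65 (0.51-0.80), and Sppl2a, the protease that clears its last fragment, at 231 and 380 CPM. In B cell-like nuclei March1, the ubiquitin ligase that removes class II molecules from the surface, stood at 325 CPM (56 UMIs) and 620 CPM (208 UMIs), with a log2 ratio of 0.93 (0.50-1.39), and Ctss at 81.2 and 140 CPM. Of the 3 genes of the list with at least 50 UMIs in B cell-like nuclei, 0 passed 2-fold, where 6.94% of genes did. In myeloid-like nuclei 2 of 3 did, where 11.0% of 938 genes did: Lgmn, an endosomal protease, stood at 484 and 112 CPM, and Sppl2a at 146 and 393 CPM. The makeup of that cluster, given above, differed between the libraries, and its part in these levels was not tested.

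Of 13 genes of class I presentation, 1 was more than 2-fold higher in all nuclei of HIF-1α KO and 0 lower, where 5.82% of genes were higher and 7.21% lower. The log2 ratios of the 13 ran from -0.61 for H2-K1 to 1.71 for Psmb8, with a median of -0.09. Psmb8, an immunoproteasome subunit, was counted at 1.89 and 6.18 CPM, and Nlrc5, the class I counterpart of Ciita, at 11.3 and 21.01 CPM, with a log2 ratio of 0.89 (0.63-1.17). In epithelial nuclei 2 of 13 were more than 2-fold higher, where 5.55% of genes were, with Nlrc5 at 5.78 and 16.6 CPM and Psmb8 at 1.63 and 5.35 CPM. H2-K1, a class I heavy chain, was lower in HIF-1α KO, at 249 and 163 CPM, with a log2 ratio of -0.61 (-0.68 to -0.55), and B2m, the light chain, was 64.6 and 67.1 CPM. Of 6 genes for co-stimulation and class II binding, 4 had at least 50 UMIs in all nuclei and 0 passed 2-fold, where 13% of genes did. In myeloid-like nuclei 1 of 1 did, where 11.0% of genes did: Cd86, a ligand of CD28, stood at 135 CPM (12 UMIs) and 393 CPM (56 UMIs), with a log2 ratio of 1.54 (0.62-2.57), beside the makeup of that cluster given above.

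The genes whose levels over the 13 classes and 2 libraries were most like the mean of the 7, among genes with at least 200 UMIs, were Cd180 and Ly86 (Pearson correlation of log2(CPM + 10) 0.97 each over 26 points), Pik3ap1 (0.96), Cd83 (0.94), Wdfy4 and Sh3bp2 (0.93 each), Snx29 and Grb2 (0.92 each), and Bank1 and Pou2f2 (0.91 each). The points share 2 libraries, and the values are a description. Cd180, a surface receptor of B cells, was counted at 180 and 438 CPM in B cell-like nuclei and at 78.9 and 133 CPM in myeloid-like nuclei.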

How the data were processed

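Per the labels and the study's methods, nuclei of snap-frozen colon were run on 10x Genomics Chromium 3′ v3.1 and reads were counted by Cell Ranger 7.0.1 on mm10. The authors deposited raw counts of UMIs per gene and barcode, and whether introns or strand were used is not given in the sources used here. The 7 genes and all gene lists were chosen with earlier results of these data known. Nuclei with 400 to 5000 genes and at most 10% mitochondrial UMIs were log-normalized and integrated in Seurat 5.3.0 (R 4.3.3; 2000 features, 30 components, resolution 1), without class II and pathway genes. Clusters were named where at least 3 markers reached a log2 ratio of 1 in 10% of nuclei, and clusters under 50 nuclei were left unnamed. Scrublet (scanpy 1.11.5) called 0 and 1 doublets. How many doublets it missed was not tested, and doublets were kept. Sums were compared with exact Poisson, conditional and binomial intervals in Python 3.11.15 (scipy 1.17.1), after tests on simulated data. By rule, named genes were all 7 and the list genes with at least 50 UMIs in a class, of which the counts cover all, whereas those given with values were picked after their values were seen. Genes were placed by GENCODE M21, which held 32235 of 32285 identifiers. Lists that named H2-Ea, H2-Ea-ps, Marchf1 and Marchf8 had no such symbols in the tables. Some genes of the marker and interferon lists enter the counts of their lists and are not reported here by name.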

Additional observations from a re-analysis of the deposited data

How the results depend on the processing

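Of 115 recomputed values of the main results, 85 stayed within the counting interval of the value as reported, 30 moved outside it, and all 14 of 14 for single genes in all nuclei stayed within. With nuclei thinned to 1000 UMIs, the log2 ratio of the 7 genes was 0.11 in all, -0.83 in myeloid-like and -0.52 in epithelial nuclei, and with nuclei weighted equally it was 0.27 in all nuclei. Against the reported -0.05, the sign in all nuclei thus turned under both settings, and that in myeloid-like nuclei, -0.20 as reported, turned to 0.29 by own markers and to 0.02 without the highest nucleus. The reported intervals of both included 0. The shares of class II UMIs moved most. For B cell-like nuclei they were 10.3% (WT) and 22.8% (HIF-1α KO) with nuclei named by their own markers, 40.5% (HIF-1α KO) after thinning, and 21.2% and 38.9% without H2-DMa. For myeloid-like nuclei they were 9.91% and 7.85% after thinning, 2.60% and 3.96% by own markers, and 9.71% and 8.53% without H2-DMa. For epithelial nuclei they were 38.7% and 34.1% after thinning, 33.2% and 35.2% by own markers, 39.2% and 46.2% with all barcodes, 35.4% and 46.4% without integration, 45.8% and 46.5% at resolution 0.5, 42.5% and 46.8% at resolution 2, and 34.9% and 40.6% without H2-DMa. For stromal nuclei of WT it was 6.94% by own markers. Classes by own markers and by other clusterings hold other nuclei, and the cause of the other moves was not tested. The settings without H2-DMa and without the highest nucleus were chosen after seeing the data. Myeloid- and T cell-like clusters could not be named with all barcodes, without integration and at resolution 0.5, so these have no value.

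The genes past 2-fold numbered 1875 in all, 163 in B cell-like, 103 in myeloid-like, 1466 in epithelial and 292 in stromal nuclei. With at least 20 UMIs they numbered 671 in B cell-like, 478 in myeloid-like, 2320 in epithelial and 827 in stromal nuclei. Past 1.5-fold they numbered 4291 in all, 628 in B cell-like, 300 in myeloid-like, 3549 in epithelial and 1247 in stromal nuclei. No paired analysis was possible because each genotype has 1 library. With 1 library per genotype, differences between animals, pools and library preparation cannot be told apart from genotype. Low counts limit the levels in myeloid- and T cell-like nuclei, which rest on 11 to 67 UMIs.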
